A study of Mus musculus with 6 samples.

Results

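The genes described here are those of the TH1 lineage together with the receptors of IL-12 and interferon-γ (IFN-γ), 10 genes of the 54525 in the table of raw counts: *Tbx21*, *Eomes*, *Hlx*, *Ifng*, *Stat4*, *Il12rb1*, *Il12rb2*, *Ifngr1*, *Ifngr2* and *Irf1*. They were chosen by name, and each name matched a single row. RNA came from 3 WT samples and 3 *Abat* cKO samples of CD4+ T cells, which the legend of the study calls independent biological samples. Naive cells from lymph nodes and spleen of mice aged 6 to 8 weeks, strain C57BL/6N on the labels, were activated for 36 h with IL-2 on plates coated with anti-CD3 and anti-CD28, the TH0 condition, in both genotypes. No IL-12 is named for this condition. The *Abat* cKO line carried a floxed *Abat* allele, made by crossing a targeted line to a Flippase strain, and a Cre driven by *Cd4*, which is active in developing T cells of the CD4 and the CD8 lineage. Littermate controls are not named and the cultures of the genotypes were handled separately, so genotype, mouse line and culture cannot be told apart.

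TH1 cells are the helper T cells of the response to intracellular microbes. IL-12, made by other cells, binds a receptor of the chains encoded by *Il12rb1* and *Il12rb2* and activates STAT4, and IFN-γ binds the chains encoded by *Ifngr1* and *Ifngr2*. IFN-γ induces *Irf1* and *Tbx21*, which encodes T-bet, the lineage-defining factor of TH1 cells, and T-bet raises *Il12rb2* and *Ifng*. *Eomes* encodes a related T-box factor of CD8+ T cells and NK cells, and *Hlx* a homeobox factor that acts together with T-bet.

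The gamma-activated sequence (GAS), an element of promoters that respond to IFN-γ, was searched here as TTCNNNGAA on both strands in the 250 bases before each start site of the RefSeq promoter table (GRCm38.p6). The table held promoters of 9 of the 10 genes, all but *Il12rb1*. A match lay before *Il12rb2*, *Ifng* and *Irf1*, in 3 of 11 promoters of these genes, while 7.02% of all 32851 promoters held one. These 3 are shown because they hold the match and belong to a receptor chain that rose, the cytokine itself and the IFN-γ target whose level did not pass the test, with the GAS match in capitals. The locations are chr6:67376189-67376438, minus strand for *Il12rb2*, chr10:118440796-118441045, plus strand for *Ifng*, and chr11:53769764-53770013, plus strand for *Irf1*.
Il12rb2: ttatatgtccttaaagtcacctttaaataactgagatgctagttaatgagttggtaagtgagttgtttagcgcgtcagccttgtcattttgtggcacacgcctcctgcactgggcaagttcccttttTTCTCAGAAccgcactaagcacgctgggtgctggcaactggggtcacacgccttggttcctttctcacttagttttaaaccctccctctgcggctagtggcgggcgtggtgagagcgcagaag
Ifng: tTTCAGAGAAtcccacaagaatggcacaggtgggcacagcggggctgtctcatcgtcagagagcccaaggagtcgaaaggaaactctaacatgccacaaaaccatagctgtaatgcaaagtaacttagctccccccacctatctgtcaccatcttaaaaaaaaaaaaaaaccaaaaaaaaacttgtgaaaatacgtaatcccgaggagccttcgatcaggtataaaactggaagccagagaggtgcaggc
Irf1: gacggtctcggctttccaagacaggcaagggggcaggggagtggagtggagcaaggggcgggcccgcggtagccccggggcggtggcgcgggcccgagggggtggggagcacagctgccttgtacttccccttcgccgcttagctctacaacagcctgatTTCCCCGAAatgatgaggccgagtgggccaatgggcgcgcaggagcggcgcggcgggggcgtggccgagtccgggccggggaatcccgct
The match begins 123 bases before the start site of *Il12rb2*, 249 before that of *Ifng* and 90 before that of *Irf1*. The interferon-stimulated response element, also searched on both strands, had a match before *Eomes* and *Stat4* (2.98% of all promoters), and the T-box motif, searched as TCACACC on both strands, matched before 0 of the 11 (3.33% of all promoters). A match of letters is not a binding site, and no match says nothing of a factor outside these windows.

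The samples held 19566016 to 24396746 counts over genes. Levels are given as CPM, the counts relative to library size, after scaling by the trimmed mean of M values (TMM), and the genotypes were compared with edgeR's quasi-likelihood test on the counts of the 13605 genes kept by its low-count filter, and p-values were adjusted over that whole set. *Abat* itself had 5, 1 and 0 counts in WT and 7, 3 and 2 in *Abat* cKO, too few to check the genotype labels, on which each direction below rests. A supplementary sheet of raw counts that accompanies the study, of which only a part was at hand, was compared with the deposited table by header alone. It holds *Il12rb1*, *Il2ra*, *Il2* and *Prdm1* with the deposited counts under exchanged genotype headers, while *Ifngr2* and the other genes of the lists found there stand under the same headers as deposited. The deposited headers were used throughout. Which headers are right for these 4 genes could not be settled, so their directions are open. The 14 genes listed for CD4+ T cells were abundant in every sample, and all but *Cd4* are also expressed by CD8+ T cells. Their summed level was 4740 to 4858 CPM in WT and 4084 to 4263 CPM in *Abat* cKO. Of the 14, 9 were lower in *Abat* cKO and 5 did not pass, while 13.4% of all tested genes were lower. With scaling to spike-in controls, 4 of the 14 were lower, beside 1185 of all 13605 tested genes. Markers of myeloid and dendritic cells summed to at most 4.40 and 2.08 CPM, with *Clec9a* and *Cd209a* at 0 in every sample. B cell markers summed to 245 to 272 CPM in WT and 101 to 106 CPM in *Abat* cKO. The listed genes of NKT cells and innate lymphoid cells summed to 346 to 363 CPM in WT and 405 to 453 CPM in *Abat* cKO. Nearly all of this sum was *Tcf7* (means of 331 CPM in WT and 327 CPM in *Abat* cKO) and *Gata3* (19.1 and 100 CPM). The others were low, *Zbtb16* at 0.27 and 0.70 CPM, *Il1rl1* at 0.30 and 0.76 CPM and *Cd1d1*, which fell, at 2.20 and 1.23 CPM. The part of cells other than CD4+ T cells in the results was not tested. WT replicate 3 stood apart in the genes described here. Of the 9875 genes whose mean log2 CPM reached 2, 42 (0.425%) were more than 2-fold lower in it than the mean of WT replicates 1 and 2, and *Tbx21*, *Eomes*, *Ifng* and *Il12rb2* were 4 of these. Tests of the genes that this sample moves are therefore given with and without it. The sample was singled out by its levels in these same genes, and leaving it out removes the spread that it made within WT. The SE of *Ifng*, for example, fell from 0.369 to 0.115. Adjusted p-values without it can thus be smaller through this choice alone and are given as a description.

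Counts of 9 of the 10 genes were high enough to be tested. Of the 9, 4 were higher in *Abat* cKO (*Il12rb2*, *Ifng*, *Il12rb1*, *Ifngr2*), 1 was lower (*Eomes*), and 4 did not pass the test (*Tbx21*, *Stat4*, *Ifngr1*, *Irf1*). Over all tested genes, 31.5% passed, 18.1% higher and 13.4% lower. Under the exchanged headers *Il12rb1* would count among the lower genes. The genotypes did not overlap for 5 of the 9, the same 5 that passed, against 45.9% of all tested genes. The median log2 fold change of the 9 tested genes was 0.25, and that over all tested genes was 0.0046. Without WT replicate 3, 4 were higher and 2 were lower, *Stat4* being added, against 27.7% of tested genes in either direction.

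**Figure D1:**
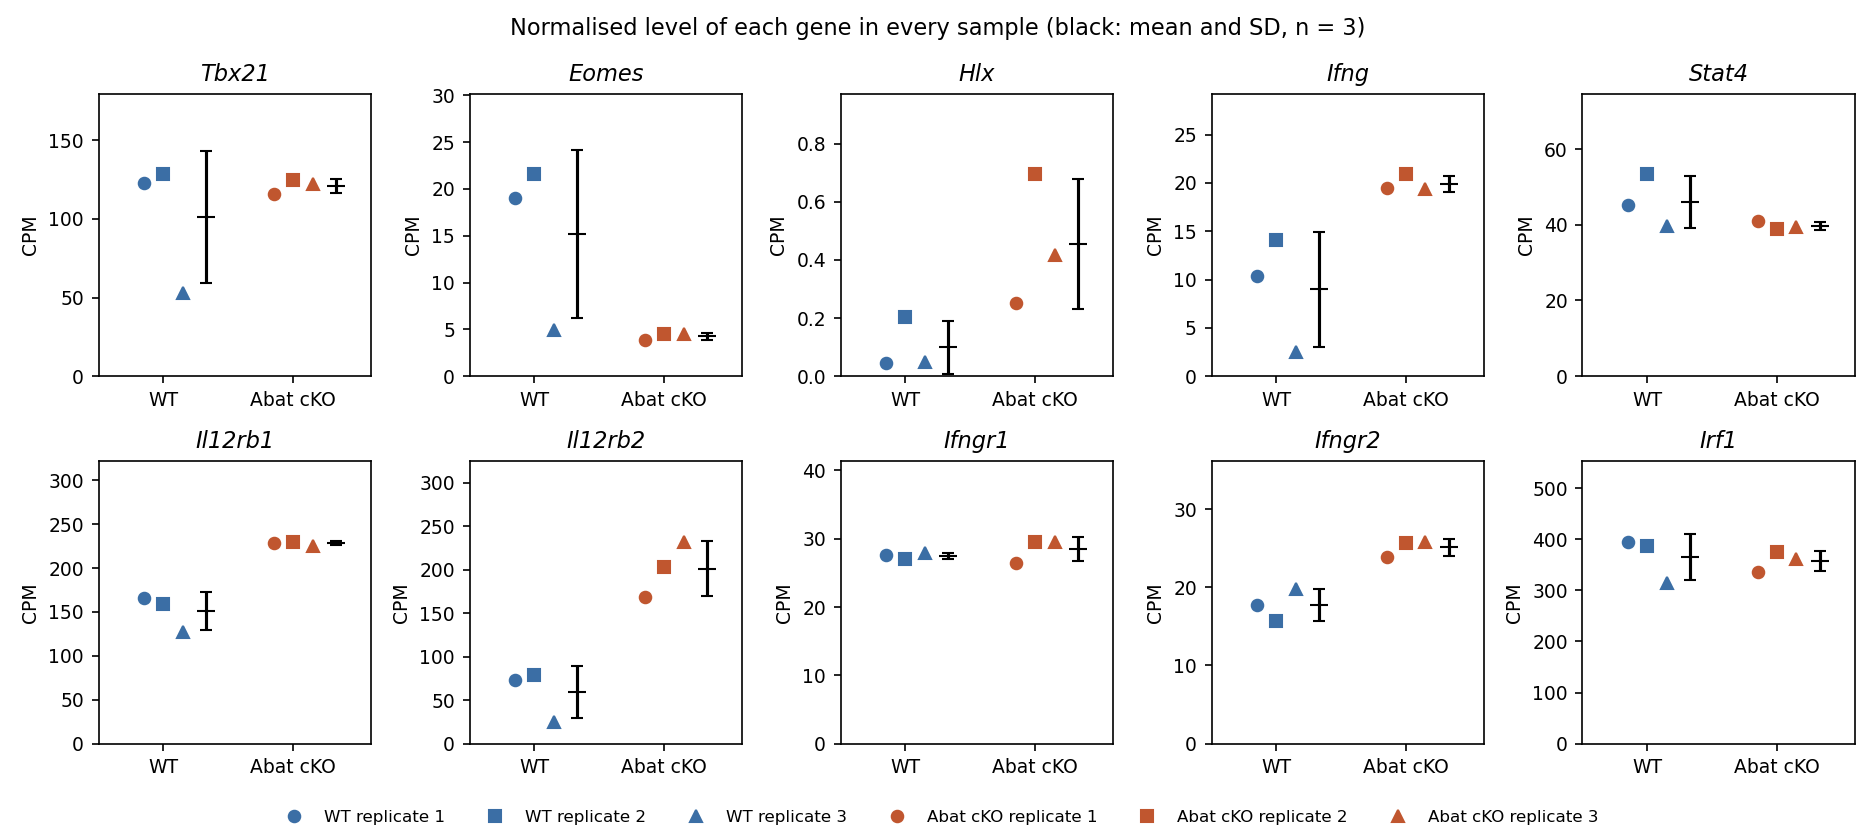
CPM of the 10 genes (vertical axes, each from 0) in the 3 WT samples (blue) and the 3 *Abat* cKO samples (orange), with the replicate given by the symbol and the mean and SD in black. WT replicate 3 (blue triangle) was the lowest of the 6 samples for *Tbx21* (52.7 CPM), *Ifng* (2.47 CPM) and *Il12rb2* (25.5 CPM), and lay beside the *Abat* cKO samples for *Eomes* (4.98 CPM).

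By the deposited headers the IL-12 receptor was higher in *Abat* cKO in both of its chains, and for *Il12rb1* that direction is open. *Il12rb2* (ENSMUSG00000018341.12), the inducible chain that binds STAT4, lies on the minus strand of chromosome 6 of GRCm38 from 67291318 to 67376188. Its level was 73.3, 79.1 and 25.5 CPM in the WT samples and 168, 203 and 232 CPM in the *Abat* cKO samples. Every *Abat* cKO sample thus lay above every WT sample, by more than the spread of either genotype. The means were 59.3 ± 29.4 CPM (SD, n = 3) and 201 ± 32.0 CPM (SD, n = 3), a 3.38-fold difference on the scale of the fit (log2 fold change 1.75, SE 0.31, adjusted p = 0.00159). Without WT replicate 3 the log2 fold change was 1.39 (adjusted p = 6.4e-06), so the low sample widened the difference but did not carry it. Exons of *Il12rb2* overlap those of *Serbp1* on the other strand, and whether strand was used in counting is not given in the sources used here. *Serbp1* had a log2 fold change of -0.03 (adjusted p = 0.74).

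*Il12rb1* (ENSMUSG00000000791.9), the chain that the receptors of IL-12 and IL-23 share, lies on chromosome 8 of GRCm38 from 70808449 to 70821424. It was at 166, 160 and 127 CPM in WT and at 229, 230.0 and 225 CPM in *Abat* cKO. The *Abat* cKO samples were within a few CPM of each other, and WT replicate 3 was again the lowest. The log2 fold change was 0.60 (SE 0.08, adjusted p = 0.00044), which is 1.51-fold, and 0.475 without WT replicate 3 (adjusted p = 2.72e-05). Per kilobase of the gene length given in the deposited table, *Il12rb2* stood at 19.8 CPM against 52.5 CPM for *Il12rb1* in WT, and at 67.1 CPM against 79.4 CPM in *Abat* cKO. The log2 ratio of *Il12rb2* to *Il12rb1* counts, which no scaling of the library changes, was -1.18, -1.01 and -2.31 in WT and -0.44, -0.18 and 0.04 in *Abat* cKO. The mean of this log2 ratio was -1.50 in WT and -0.19 in *Abat* cKO, and the difference was 0.905 without WT replicate 3. Its size and that of *Il12rb1* rest on the deposited headers of *Il12rb1*.

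*Stat4*, which encodes the factor activated by that receptor, did not follow it. It was at 45.3, 53.3 and 39.7 CPM in WT and at 40.9, 38.8 and 39.4 CPM in *Abat* cKO. The *Abat* cKO samples were close together at the lower end of the WT range. The log2 fold change was -0.22 (95% interval -0.42 to -0.01, adjusted p = 0.101). Without WT replicate 3 it was -0.32 and passed (adjusted p = 0.00619), and without WT replicate 2, the highest sample, it was -0.10 (adjusted p = 0.374).

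*Ifng* (ENSMUSG00000055170.4), the cytokine of TH1 cells, lies on chromosome 10 of GRCm38 from 118441046 to 118445892. Its counts were 231, 345 and 51 in WT and 386, 451 and 372 in *Abat* cKO. As CPM these were 10.4, 14.1 and 2.47 in WT and 19.4, 20.9 and 19.3 in *Abat* cKO. The genotypes did not overlap, and the WT samples differed among themselves far more than the *Abat* cKO samples, with a coefficient of variation of 66.0% against 4.38%. The means were 8.98 ± 5.93 CPM (SD, n = 3) and 19.9 ± 0.871 CPM (SD, n = 3), with a log2 fold change of 1.12 (SE 0.37, adjusted p = 0.0418). WT replicate 3 sets much of this size and spread, since without it the log2 fold change was 0.685 (SE 0.12, adjusted p = 0.00111). The call was lost without WT replicate 1 (adjusted p = 0.0875), *Abat* cKO replicate 2 (0.12) or *Abat* cKO replicate 3 (0.0724), and with DESeq2 (0.223).

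Low levels of marker genes of other cells that make IFN-γ moved in the same samples, although naive CD4+ T cells had been isolated and activated T cells can express some of these genes, such as *Prf1* and *Klrk1*. The 10 NK cell markers summed to 3.48 to 9.34 CPM in WT and 13.3 to 15.5 CPM in *Abat* cKO. *Ncr1*, which defines NK cells, was at 0 to 0.448 CPM in WT and 0.623 to 1.30 CPM in *Abat* cKO. With at least 10 counts in every sample, 2 NK cell markers were tested and 1 was higher, beside 2233 of all 12373 genes tested there. *Klrb1c* and *Ncr1* reached a test only through their level in *Abat* cKO. The 6 γδ T cell genes in the table summed to 2.71 to 4.73 CPM in WT and 8.99 to 9.51 CPM in *Abat* cKO, and *Tcrg-C4* likewise reached a test only through *Abat* cKO. WT replicate 3 had the lowest sum of both lists. Their part in the level of *Ifng* was not tested, and in such bulk RNA more cells of a type and more RNA per cell cannot be told apart.

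Among the transcription factors, *Eomes* was lower in *Abat* cKO while *Tbx21* did not pass the test. *Eomes* (ENSMUSG00000032446.14) lies on chromosome 9 of GRCm38 from 118478212 to 118486132. It was at 19.0, 21.6 and 4.98 CPM in WT and at 3.83, 4.49 and 4.47 CPM in *Abat* cKO. WT replicate 3 was only just above the *Abat* cKO samples, and the other WT samples lay far above them. The log2 fold change was -1.84 (SE 0.43, adjusted p = 0.00889), a 3.59-fold lower level, and -2.26 without WT replicate 3 (adjusted p = 1.29e-07).

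*Cd8a*, a marker of CD8+ T cells, which use *Eomes*, had the same order of samples. It was at 12.1, 13.2 and 1.98 CPM in WT and at 0.906, 1.44 and 1.25 CPM in *Abat* cKO. Both genes of that list were lower, beside 13.4% of all tested genes. Without WT replicate 1 or WT replicate 2, 1 of them was lower, beside 1279 of 13942 and 1359 of 13990 tested genes. The 2 genes summed to 7.49 to 24.2 CPM in WT and 5.61 to 6.48 CPM in *Abat* cKO, with neither at 0 in any sample. Naive CD4+ T cells had been isolated before culture, and the part of CD8+ T cells in the level of *Eomes* was not tested.

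*Tbx21* (ENSMUSG00000001444.2) lies on the minus strand of chromosome 11 of GRCm38 from 97098071 to 97115331. It was at 123, 128 and 52.7 CPM in WT and at 116, 125 and 122 CPM in *Abat* cKO. WT replicates 1 and 2 and all *Abat* cKO samples were at a like level, and WT replicate 3 was at 42.0% of the mean of the other WT samples. The log2 fold change was 0.25 (95% interval -0.30 to 0.80, adjusted p = 0.492). Without WT replicate 3 it was -0.06 (SE 0.06, adjusted p = 0.44), so the direction in the means came from that sample. *Hlx*, the homeobox partner of T-bet, was barely detected, with 1, 5 and 1 counts in WT and 5, 15 and 8 in *Abat* cKO. It did not pass the filter on low counts, and the ratio of its summed scaled counts was 4.44 (95% exact interval 1.90 to 12.04, which covers counting error only).

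The receptor of IFN-γ differed in 1 of its chains. *Ifngr2*, the signalling chain that brings JAK2 to the receptor, lies on chromosome 16 of GRCm38 from 91547072 to 91565623. It was at 17.7, 15.7 and 19.8 CPM in WT and at 23.9, 25.7 and 25.8 CPM in *Abat* cKO. The genotypes did not overlap, and WT replicate 3 was here the highest of the WT samples. The log2 fold change was 0.51 (SE 0.08, adjusted p = 0.00119), which is 1.42-fold, and 0.58 without WT replicate 3. *Ifngr1*, the chain that binds the cytokine, was at 27.6, 27.0 and 27.9 CPM in WT and at 26.4, 29.6 and 29.6 CPM in *Abat* cKO. Its samples overlapped, with a log2 fold change of 0.05 (95% interval -0.08 to 0.19, adjusted p = 0.566). The log2 ratio of *Ifngr2* to *Ifngr1* counts was -0.64, -0.78 and -0.50 in WT and -0.15, -0.20 and -0.20 in *Abat* cKO.

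*Irf1*, a transcription factor induced by IFN-γ, had the highest level per length of the 10 genes in both genotypes. It was at 395, 386 and 314 CPM in WT and at 335, 374 and 362 CPM in *Abat* cKO. The *Abat* cKO samples lay inside the WT range, which WT replicate 3 opened at its lower end. The log2 fold change was -0.03 (95% interval -0.21 to 0.15, adjusted p = 0.804).

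**Figure D2:**
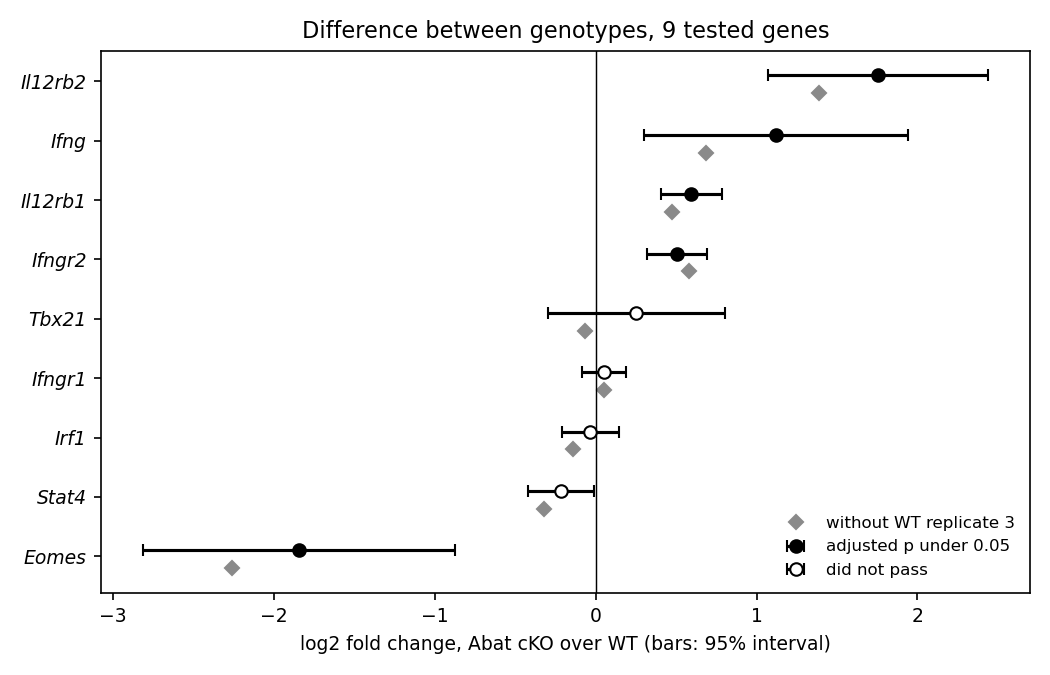
Log2 fold change of *Abat* cKO over WT (horizontal axis) for the 9 tested genes, with the 95% interval of edgeR's fit, filled where the adjusted p was under 0.05, and the value without WT replicate 3 as a grey diamond. *Il12rb2* (1.75), *Ifng* (1.12) and *Eomes* (-1.84) had the widest intervals among the genes that passed, and the diamond of *Tbx21* (-0.06) lies on the other side of 0 from its point (0.25).

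Levels of different genes were compared per kilobase of gene length. In WT the order from the highest was *Irf1* (171 CPM per kilobase), *Il12rb1* (52.5), *Tbx21* (40.7), *Il12rb2* (19.8), *Stat4* (15.4), *Ifngr1* (13.0), *Ifng* (7.44), *Ifngr2* (4.78), *Eomes* (4.27) and *Hlx* (0.0435). The ranges of neighbours overlapped for *Il12rb1* and *Tbx21*, *Tbx21* and *Il12rb2*, *Il12rb2* and *Stat4*, *Ifng* and *Ifngr2*, and *Ifngr2* and *Eomes*, so these steps did not exceed the spread. In *Abat* cKO the order was *Irf1* (167 CPM per kilobase), *Il12rb1* (79.4), *Il12rb2* (67.1), *Tbx21* (48.6), *Ifng* (16.5), *Ifngr1* (13.5), *Stat4* (13.3), *Ifngr2* (6.77), *Eomes* (1.20) and *Hlx* (0.199). Only the ranges of *Ifngr1* and *Stat4* overlapped there. *Il12rb2* thus stood above *Tbx21* in *Abat* cKO, and *Ifng* above *Ifngr1* and *Stat4*.

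**Figure D3:**
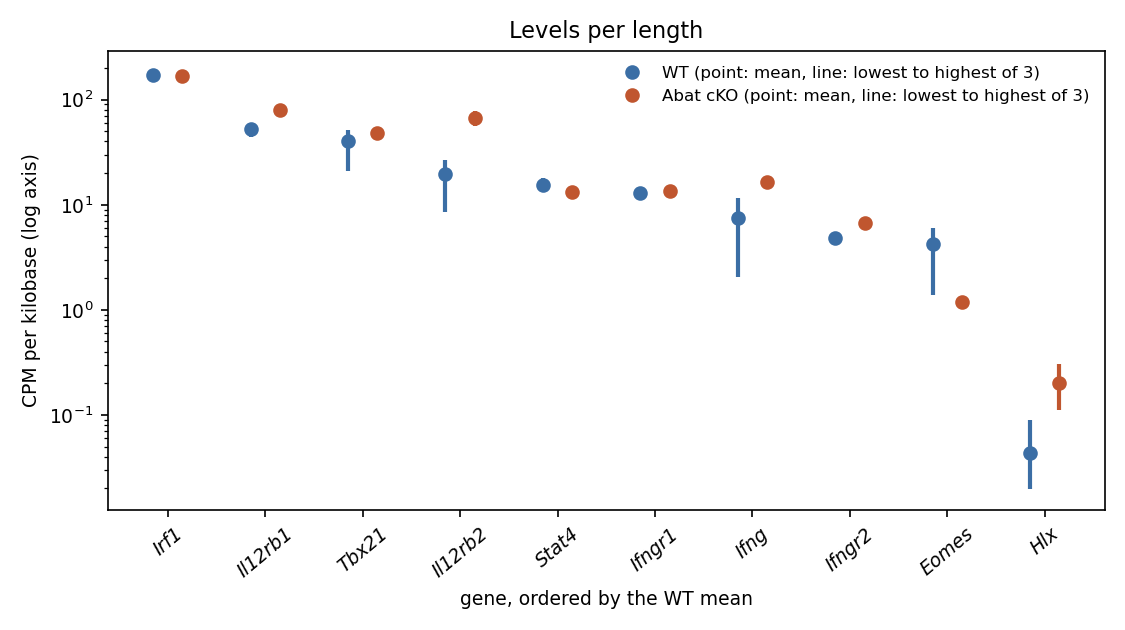
CPM per kilobase of gene length (log axis) of the 10 genes, ordered by the WT mean, as the mean (point) and the lowest to highest of 3 samples (line) in WT (blue) and *Abat* cKO (orange). *Il12rb2* went from 19.8 to 67.1, *Ifng* from 7.44 to 16.5 and *Eomes* from 4.27 to 1.20, and *Irf1* stood at the top at 171 and 167.

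Ratios of counts within a sample set the TH1 genes against each other and against the TH2 genes *Gata3*, the lineage-defining factor of TH2 cells, and *Il4*, their cytokine. Of the 6 ratios computed, none overlapped between genotypes, and each had an exact permutation p of 0.1 (two-sided, 0.1 when adjusted over the 6), the smallest that 3 against 3 samples allow. The log2 ratio of *Ifng* to *Tbx21* was -3.56, -3.19 and -4.40 in WT and -2.58, -2.58 and -2.66 in *Abat* cKO. More *Ifng* RNA stood beside each unit of *Tbx21* RNA in every *Abat* cKO sample, and the difference was 1.11 with WT replicate 3 and 0.769 without it. The log2 ratio of *Eomes* to *Tbx21* was lower by 1.94 in *Abat* cKO.

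The log2 ratio of *Tbx21* to *Gata3* was 2.52, 2.81 and 1.59 in WT and 0.38, 0.30 and 0.15 in *Abat* cKO, with *Gata3* at 19.1 ± 2.11 CPM (SD, n = 3) and 100 ± 10.7 CPM (SD, n = 3). The ratio was lower in every *Abat* cKO sample than in any WT sample, with a difference of -2.03. The log2 ratio of *Ifng* to *Il4* was 5.15, 6.26 and 4.37 in WT and 3.76, 3.71 and 3.43 in *Abat* cKO, from only 6, 4 and 2 counts of *Il4* in WT and 28, 34 and 34 in *Abat* cKO. The ratio of *Ifng* to *Il4* was thus lower in every *Abat* cKO sample than in any WT sample, at counts of *Il4* that leave it imprecise.

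**Figure D4:**
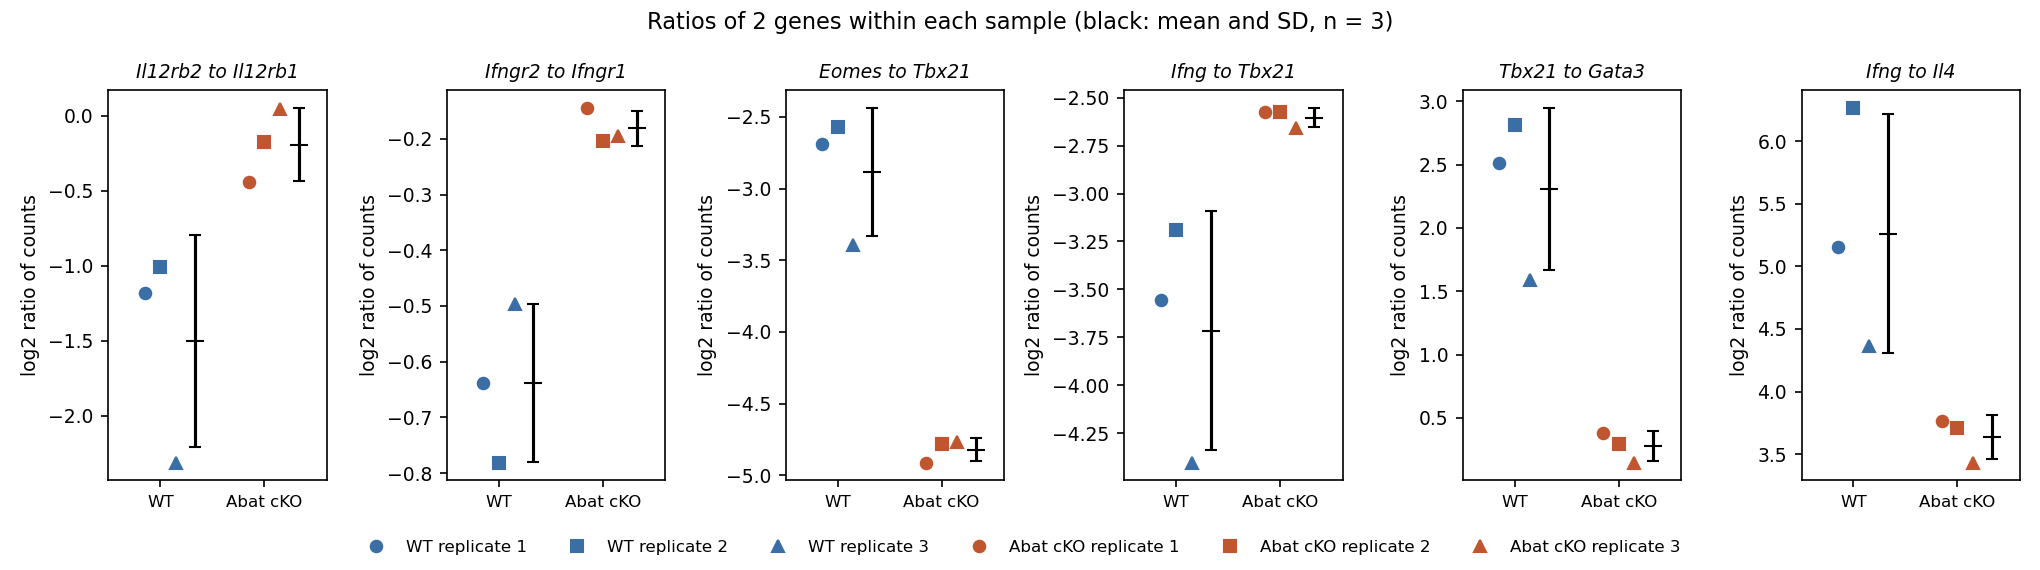
Log2 ratio of the raw counts of 2 genes within each sample (vertical axes, 0.5 added to each count), for 6 pairs, with WT in blue, *Abat* cKO in orange and the mean and SD in black. In each panel the genotypes do not overlap, and WT replicate 3 is the lowest point of the ratios *Il12rb2* to *Il12rb1* (-2.31) and *Ifng* to *Tbx21* (-4.40).

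Genes with the pattern most like *Tbx21* and *Ifng* were sought among 9874 others by the Euclidean distance of log2 CPM, each gene set to its WT mean, over the 6 samples. Nearest to *Tbx21* were *Lipg* (distance 0.206), *Gbp10* (0.228) and *Nkg7* (0.244), which WT replicate 3 held at 41.5%, 44.5% and 44.3% of the mean of the other WT samples. None of these passed the test between genotypes, with log2 fold changes of 0.32, 0.19 and 0.13. Nearest to *Ifng* were *Gzmb* (0.274), *Ly6c1* (0.393) and *Ly6a* (0.572). *Gzmb*, which encodes granzyme B, was at 66.0, 76.9 and 14.3 CPM in WT and at 103, 121 and 128 CPM in *Abat* cKO, with a log2 fold change of 1.15 (adjusted p = 0.0524). Without WT replicate 3 the log2 fold change of *Gzmb* was 0.70 and passed (adjusted p = 0.000268). That sample was the lowest of the 6 for each of these neighbours, and those of *Ifng* also had the higher levels in *Abat* cKO. The neighbours were picked by their levels in these same 6 samples, so both traits follow from that choice. Their tests are therefore no independent result.

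Of the other genes of IL-12 signalling, 13 of 19 were tested, of which 6 rose, 3 fell and 4 did not pass, with a median log2 fold change of 0.30 against 0.0046 over all tested genes, of which 18.1% rose and 13.4% fell. The list is one of IL-12 family signalling and also holds receptor chains of IL-2, IL-18 and IL-27 and feedback genes of several cytokines. Its counts are therefore not of IL-12 signalling alone. The counts of the lists that follow are to be read beside the same shares. *Jak2*, the kinase used by the receptors of IL-12 and IFN-γ, was at 286, 293 and 268 CPM in WT and at 428, 430.3 and 432 CPM in *Abat* cKO (log2 fold change 0.61, adjusted p = 4.1e-06). *Il2ra*, the α chain of the IL-2 receptor, was at 0.56 by the deposited headers, a direction that is open, and *Cish* and *Ptpn2*, which restrain cytokine receptor signals, rose by 0.61 and 0.39. The 3 lower genes were *Socs2* (-0.59), *Il27ra* (-0.14) and *Il18rap* (-0.80), the last chosen after its value was seen. Only 1 gene of the list was lower without WT replicate 1, WT replicate 2 or *Abat* cKO replicate 3. Over all tested genes, lower ones then numbered 1279 of 13942, 1359 of 13990 and 1533 of 14019. Genes of the ligands were near the limit of detection. *Il12b*, which encodes the chain that IL-12 and IL-23 share, was at 0.541, 0.122 and 0 CPM in WT and at 0 in every *Abat* cKO sample.

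Genes of IFN-γ signalling had calls in both directions, with 5 that rose, 5 that fell and 6 that did not pass among 16 tested (18.1% and 13.4% of all tested genes rose and fell) and a median log2 fold change of -0.08. The higher ones held, beside *Jak2* and *Ptpn2*, the feedback inhibitor *Socs3* (0.85) and the phosphatase *Ptpn6* (0.17). *Jak1*, the kinase on the chain encoded by *Ifngr1*, was at 455, 454 and 459 CPM in WT and at 390, 389 and 379 CPM in *Abat* cKO (log2 fold change -0.24, adjusted p = 0.000758), and *Irf9*, a transcription factor of interferon responses, was at -0.36. The kinases of the receptor thus went opposite ways, *Jak2* higher and *Jak1* lower. Lower genes numbered 8 without WT replicate 3, beside 1752 of all 13957 genes tested then. They numbered 3 without WT replicate 1, WT replicate 2, *Abat* cKO replicate 2 or *Abat* cKO replicate 3. Over all tested genes, lower ones then numbered 1279 of 13942, 1359 of 13990, 1326 of 13938 and 1533 of 14019.

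Of 26 tested target genes of IFN-γ, 3 rose, 4 fell and 19 did not pass, beside 31.5% of all tested genes that passed, with a median log2 fold change of -0.04. *Icam1*, an adhesion molecule, and *Socs1*, a feedback inhibitor, rose by 0.79 and 0.60, and *Gbp5*, named after its value was seen, by 0.42. *Ifi47*, an interferon-inducible GTPase, was at -0.71, *Cd274*, which encodes PD-L1, at -0.45, *Ciita*, which drives MHC class II genes, at -1.16 and its relative *Nlrc5* at -0.19. WT replicate 3 was the lowest of the 6 samples for 21 of the 31 genes, and their summed level was 5781, 5849 and 3743 CPM in WT and 5135, 5254 and 5368 CPM in *Abat* cKO. The sample with the least *Ifng* RNA was thus also the one with the least RNA of its target genes, while the *Abat* cKO samples, with more *Ifng* RNA than any WT sample, lay below WT replicates 1 and 2 in this sum. Without WT replicate 3, 4 of 27 tested genes were higher and 11 were lower, beside 15.2% and 12.6% of all genes tested then. Lower genes numbered 2 without WT replicate 1, WT replicate 2, *Abat* cKO replicate 2 or *Abat* cKO replicate 3. Over all tested genes, lower ones then numbered 1279 of 13942, 1359 of 13990, 1326 of 13938 and 1533 of 14019.

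**Figure D5:**
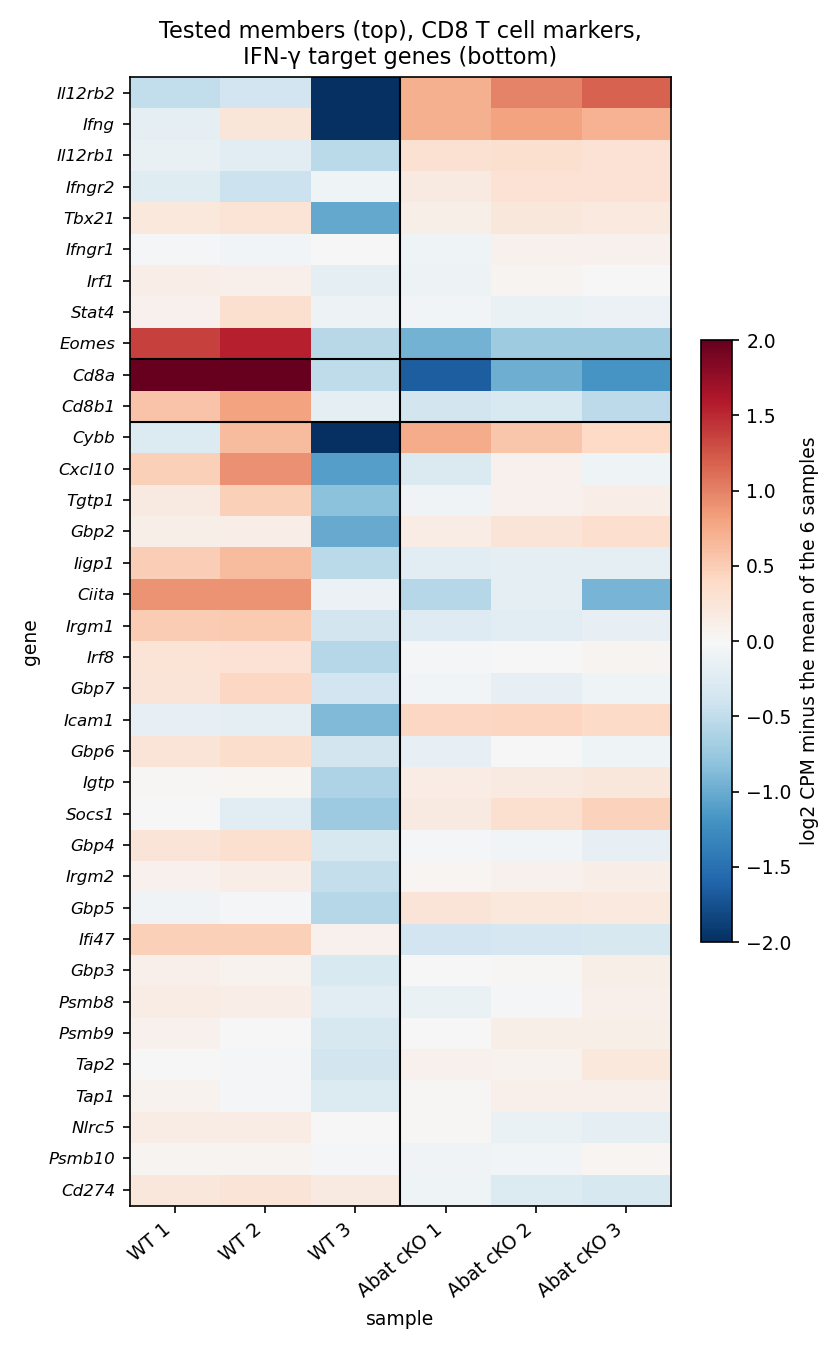
Log2 CPM minus the mean of the 6 samples (colour, capped at 2 in both directions) for the 9 tested genes of the TH1 lineage, both CD8+ T cell markers and the 26 tested IFN-γ target genes less 1 that is not shown (rows), in each sample (columns). The column of WT replicate 3 is blue for most target genes, whose summed level was 3743 CPM there and 5781 and 5849 CPM in the other WT samples, and the row of *Eomes* has the order of samples seen for *Cd8a*.

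Of 20 tested effector genes of TH1 cells, 4 rose, 6 fell and 10 did not pass (18.1% and 13.4% of all tested genes rose and fell). Their median log2 fold change was -0.00081. *Fasl*, which encodes the ligand of the death receptor FAS, was at 14.6, 14.0 and 18.5 CPM in WT and at 2.82, 2.78 and 2.44 CPM in *Abat* cKO (log2 fold change -2.54, adjusted p = 6.97e-07). The chemokine genes *Ccl3* and *Ccl4* were at -0.88 and -1.27 and *Tnfsf11*, which encodes RANKL, at -1.02. *Il2*, the T cell growth factor, was at 1.53 by the deposited headers, a direction that is open.

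Of 15 tested regulators of TH1 differentiation, 6 rose, 5 fell and 4 did not pass, with a median log2 fold change of 0.10. *Runx3*, a partner of T-bet at *Ifng*, rose by 0.93, from 49.3 ± 6.78 CPM (SD, n = 3) to 94.3 ± 5.31 CPM (SD, n = 3), and *Bhlhe40* and *Smad3* rose by 0.50 and 0.41. *Prdm1*, which encodes BLIMP-1, was at 2.47 from a low level (0.823 CPM in WT) by the deposited headers, a direction that is open, while *Zeb2* and *Ikzf1* were at -0.94 and -0.40. Of 13 tested genes of rival programs, 4 were higher (*Gata3*, *Ikzf3*, *Il4ra* and *Ikzf2* at 2.40, 1.29, 0.65 and 0.94) and 2 were lower, with a median of 0.01. *Tgfbr2*, a receptor of TGF-β, was among the lower ones (-0.34).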

How the data were processed

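Total RNA of 3 WT and 3 *Abat* cKO samples, depleted of ribosomal RNA, was sequenced. The authors deposited raw counts per gene, with a gene length and 92 spike-in controls, which were left out of library sizes and tests. The deposited normalized counts are a signal, the raw counts divided by a size factor per sample, and were only checked against the counts. The deposited table also gives group means and, from the authors' own comparison, a log2 fold change with its adjusted p-value, which were not used. TopHat2 and HTSeq (GRCm38) are named in the supplementary methods, and the submitters' processing notes name STAR 2.7 and RSEM 1.31, so the counting tool is not settled.

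Counts were compared for genotype alone by the quasi-likelihood test of edgeR 4.0.16 (R 4.3.3) after its filter and TMM scaling, with Benjamini-Hochberg adjustment, at an adjusted p under 0.05. The fit was also run on simulated counts with the same dispersion for every gene and no sample set apart. That run does not bear on genes such as *Ifng*, which WT replicate 3 moved. With 3 samples a group, an exact permutation test, from scipy 1.17.1, cannot go below 0.1. Ratios used raw counts plus 0.5. Coordinates came from GENCODE M21. The genes and lists were chosen with earlier results of these data known. Beyond the 10 genes, the text names up to 4 genes per list with the smallest adjusted p in the direction with more calls and 2 in the other, and the 3 nearest patterns, and some of the genes so chosen are not reported here. Alternatives were other scalings, spike-in controls among them, DESeq2 1.42.0, other filters, the replicate number as a block, and leaving out samples.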

Additional observations from a re-analysis of the deposited data

How the results depend on the processing

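*Il12rb2*, *Il12rb1*, *Ifngr2* and *Eomes* kept their direction and passed in every setting run, while *Ifng* kept its direction and lost its call with DESeq2 (1.14, adjusted p = 0.223) and without WT replicate 1, *Abat* cKO replicate 2 or *Abat* cKO replicate 3 (log2 fold changes from 0.685 to 1.608 over the samples left out). The direction of *Tbx21* reversed without WT replicate 3 (-0.065, in a range to 0.459 over the samples left out) and when *Abat* cKO replicate 1 was left out as well (-0.028). That of *Irf1* reversed without WT replicate 1 (0.028), WT replicate 2 (0.010) or *Abat* cKO replicate 1 (0.011), in a range from -0.139. With no filter on low counts, 8 of the 10 genes passed, *Tbx21*, *Stat4* and *Hlx* (adjusted p = 0.0107) among them. Of 31 IFN-γ target genes tested there, 10 were higher and 9 lower. Of all 25386 genes tested there, 2717 were higher and 1953 lower. The log2 fold change of *Tbx21* stayed at 0.251 there, while its SE fell from 0.247 to 0.055. That of *Stat4* was -0.217, with an SE of 0.064 against 0.092. These 2 calls thus came from a smaller error, not from a larger difference. Scaled to the spike-in controls, 2524 genes passed against 4290. There 2 of 16 genes of IFN-γ signalling were lower, beside 1185 of all 13605 tested genes. With library size alone, 4 of 13 tested genes of rival programs were lower, beside 2285 of all 13605 tested genes. With WT replicate 3 and *Abat* cKO replicate 1 both left out, 9 of 16 genes of IFN-γ signalling were lower. Of 27 IFN-γ target genes tested then, 6 were higher and 13 lower. Of all 13720 genes tested then, 2748 were higher and 2416 lower. *Irf1* (-0.088, adjusted p = 0.0405) and *Stat4* (-0.339) also passed in that setting. Leaving out 1 sample gave 4 to 6 of the 10 genes, 1 to 2 lower genes of IL-12 signalling, 3 to 8 lower genes of IFN-γ signalling, and 2 to 4 higher and 2 to 11 lower IFN-γ target genes. Over all tested genes, 3234 to 4540 passed then. The cause of these changes was not tested. Deviations within each genotype had a Pearson's r of -0.287, 0.116 and -0.284 across genes between same-numbered samples of both genotypes. Whether same-numbered samples share more than a number was not tested. The highest r was 0.376, between WT replicate 3 and *Abat* cKO replicate 1. *Abat* cKO replicate 1 also differed most within its genotype. Its chi-square per degree of freedom was 7.42 and 9.55 against replicates 2 and 3, which had 2.49 between them. Whether these 2 samples share an effect was not tested. With the replicate number as a block 3444 genes and 5 of the 10 genes passed. Of 13 tested genes of IL-12 signalling, 1 was lower there, beside 1416 of all 13605 tested genes. The directions of *Il12rb1*, *Il2ra*, *Il2* and *Prdm1* and the counts that hold them rest on the deposited genotype headers. *Hlx*, at 1 to 15 counts, is limited by depth.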
